A study of Homo sapiens with 30 samples.

Results

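Interferon-stimulated genes were followed in BEAS-2B, an immortalized human bronchial epithelial cell line, after exposure to whole birch pollen. The set holds 40 genes, chosen by name as known targets of interferon signalling and found through the gene name given to each array probe. All 40 genes were on the array, among 43972 gene names, with 55 of the 58201 probes. Each gene was read through its brightest probe on average, so that 40 probes carry the results below. DDX58 is the name the array gives to RIGI.

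The cells grew on membrane inserts at the air-liquid interface and received 10 mg of pollen dispersed into a sedimentation chamber (pollen), or passed through the same chamber without pollen reaching them (mock, labelled as air). RNA was taken at 10 and 55 min, at 2h25 min, at 6h50 min and after 24 h, with 3 arrays per exposure and time and 30 arrays in all. All cells were of the same line and carried no genetic change made for the study. A single cell line stands for the airway here, with no immune cells added, and the methods describe the repetitions as independent and made on different days.

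Interferons are signalling proteins that cells release when sensors in the cytoplasm meet foreign nucleic acid. They bind receptors on the same and on neighbouring cells, and kinases of the JAK family then activate STAT factors, which join IRF9 and bind a short DNA element in front of the target genes. The proteins made from these genes sense, trap or destroy viral nucleic acid and block viral entry, and many airway cells hold a low level of them without infection.

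The DNA element is the interferon-stimulated response element, searched here on both strands as the letters GAAA on either side of a pair of free bases. RefSeq promoters of build GRCh38.p14 were found for 32 of the 40 genes, and 20 of the 32 (62.5%) held the element in the 250 bases before the start of the gene. The share over all 35116 promoters was 3.02%. The gamma-activated site, searched as TTCNNNGAA, which reads the same on both strands, was in 9 of the 32 (28.1%) and in 6.57% of all promoters. The genes not matched were IFIT2, OAS2, OASL, USP18, IRF7, MX2, TRIM22 and IFITM2. A match describes letters in a window and is not evidence of binding.

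The 250 bases before the start are shown for 5 genes that held the element, some lower and some higher at 24 h, with the matches to the response element in capitals, overlapping matches joined. IFI44L (chr1:78620198-78620447, plus strand), DDX60 (chr4:168318753-168319002, minus strand) and IFITM3 (chr11:320861-321110, minus strand) were lower at 24 h than at 10 min. ISG15 (chr1:1013247-1013496, plus strand) and HERC5 (chr4:88456869-88457118, plus strand) were higher.
IFI44L: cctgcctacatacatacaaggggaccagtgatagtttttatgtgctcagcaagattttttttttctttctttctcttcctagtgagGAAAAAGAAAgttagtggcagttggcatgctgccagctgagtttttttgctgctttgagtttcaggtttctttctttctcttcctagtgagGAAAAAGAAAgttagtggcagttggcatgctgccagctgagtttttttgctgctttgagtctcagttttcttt
DDX60: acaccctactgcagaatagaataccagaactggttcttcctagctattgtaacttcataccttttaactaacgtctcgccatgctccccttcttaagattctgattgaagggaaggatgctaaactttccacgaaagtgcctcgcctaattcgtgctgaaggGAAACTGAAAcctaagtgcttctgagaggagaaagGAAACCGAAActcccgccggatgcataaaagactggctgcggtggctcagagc
IFITM3: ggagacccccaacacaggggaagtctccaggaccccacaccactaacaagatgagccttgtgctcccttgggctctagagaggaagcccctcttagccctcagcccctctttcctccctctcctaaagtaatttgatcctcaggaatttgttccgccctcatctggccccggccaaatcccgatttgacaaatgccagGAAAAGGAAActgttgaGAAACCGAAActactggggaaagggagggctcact
ISG15: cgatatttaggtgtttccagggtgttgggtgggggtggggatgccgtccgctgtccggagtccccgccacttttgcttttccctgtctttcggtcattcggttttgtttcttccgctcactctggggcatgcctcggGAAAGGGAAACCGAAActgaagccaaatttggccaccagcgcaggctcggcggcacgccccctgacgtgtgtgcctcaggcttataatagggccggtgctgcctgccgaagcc
HERC5: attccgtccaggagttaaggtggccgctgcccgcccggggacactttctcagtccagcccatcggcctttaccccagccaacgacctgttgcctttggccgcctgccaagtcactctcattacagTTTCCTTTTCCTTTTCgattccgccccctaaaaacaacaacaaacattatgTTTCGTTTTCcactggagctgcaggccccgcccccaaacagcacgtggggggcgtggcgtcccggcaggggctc
These genes were picked for holding the element. Of the 12 genes with the largest called change in mock between 24 h and 10 min, 9 had a promoter. In this search 4 of the 9 matched (IFI44L, IFI44, IFITM1 and IFITM3) and 5 did not (CMPK2, XAF1, RSAD2, SAMD9L and OAS1). Stretches with fewer free bases were not counted, and the windows of OAS1 and RSAD2 hold such a stretch, GAAACGAAA. The 5 can therefore not be said to lack a response element.

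Levels are given as scaled log2 intensity, the log2 of the processed brightness of a probe minus the 75th percentile of its array, so that 0 is the level of a probe at that percentile. Differences are log2 fold changes from limma with their standard error (SE). A gene was called where its Benjamini-Hochberg adjusted p over all 32100 tested probes was under 0.05 and the change at least 1.1-fold. All 40 genes passed the filter on dim probes, and 33 were well above background on all 30 arrays. RSAD2, which encodes the antiviral enzyme viperin, was the dimmest in this respect and was above background on 20 arrays, with none of the 6 arrays at 24 h among them. At 24 h CMPK2, XAF1, OAS1 and OAS2 were well above background on 2 of 3 mock arrays, and HERC6 on 2 of 3 pollen arrays. MX2 was so on 2 of 3 pollen arrays at 6h50 min. The group means of these genes include a value near background, which makes the size of their differences less certain. The arrays had between 44.7% and 59.3% of probes well above background, and 0 saturated spots. The arrays of 6h50 min were dim, with 44.7% to 49.8%, a range that some other arrays overlapped. Their 75th percentiles over the shared probes ran from 578 to 1151, where the highest of all arrays was 2111. Replicates 1 and 2 of mock at 6h50 min had 3.6% and 2.6% of spots in dim areas. The number of arrays limits the precision. Fewer cells and less RNA per cell cannot be told apart in these bulk samples.

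All 8 epithelial markers were above background on the 30 arrays, among them the keratins KRT5, KRT7, KRT8, KRT18 and KRT19, CDH1 and EPCAM, and so were the mesenchymal markers VIM, FN1, CDH2 and COL1A1. Of the markers of leukocytes, PTPRC and CD14 were above background on 30 arrays, CD3E on 17 and TPSAB1 on 0. Of the 4 markers of ciliated and secretory airway cells, FOXJ1 was above background on 8 arrays, the mucin genes MUC5B on 0 and MUC5AC on 27, and SCGB1A1 on 29.

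The set differed more between times than between pollen and mock. The plot of the genes by array gives the deviation of each gene from its own mean.

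**Figure D1:**
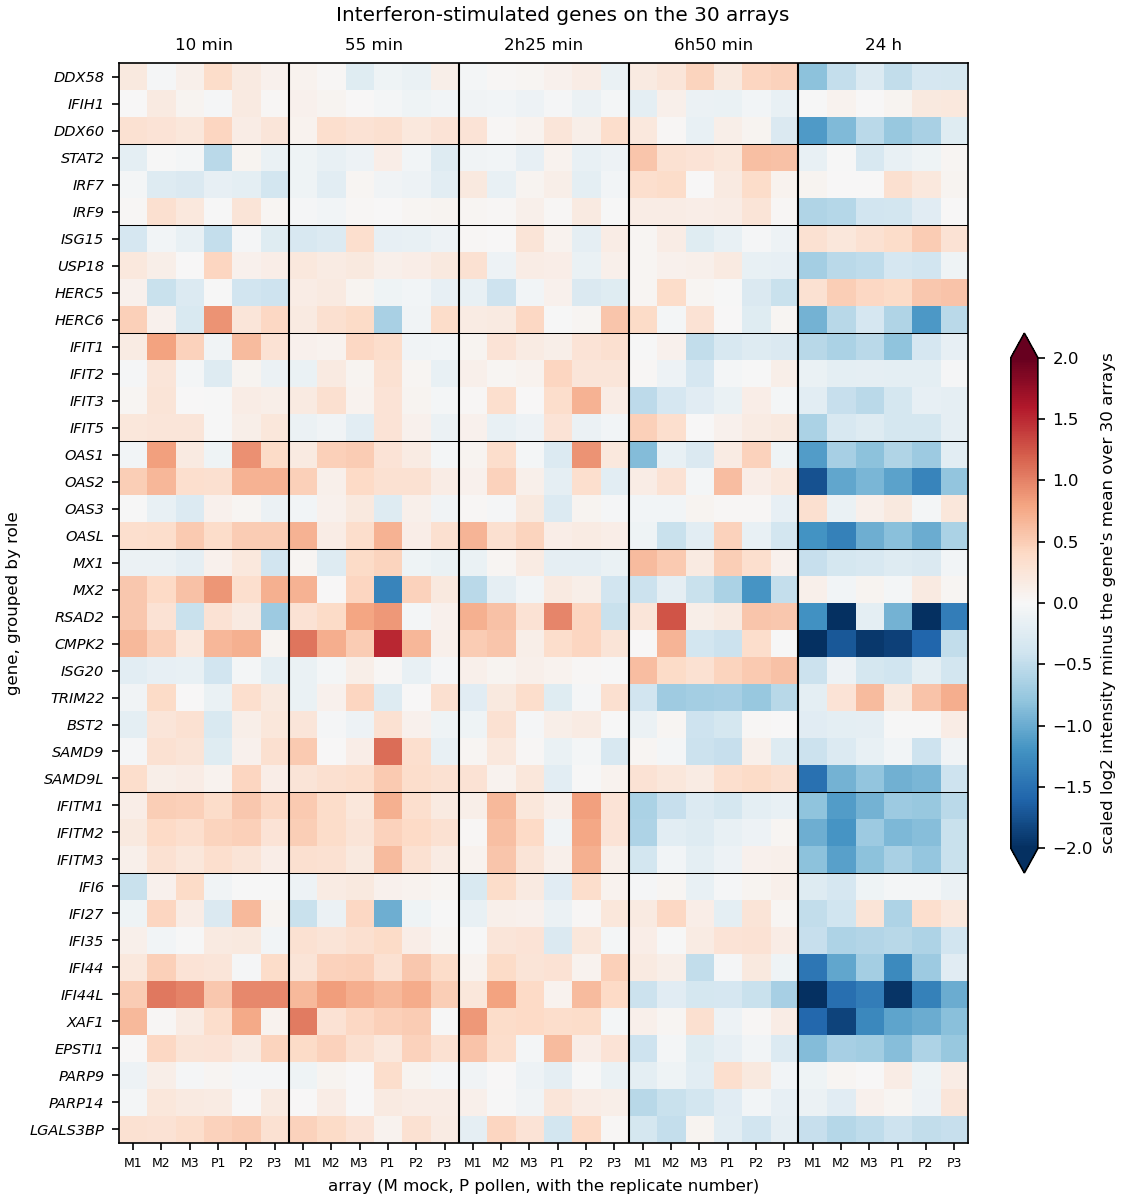
Scaled log2 intensity of the 40 interferon-stimulated genes (rows, grouped by role) on the 30 arrays (columns, by time and exposure), as the deviation from the mean of the gene over all arrays. Colours end at 2 in both directions. The 6 columns at 24 h are mostly below the mean of the gene, in mock as in pollen, with ISG15 and HERC5 above it.

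Pollen was compared with mock at 24 h to ask whether the exposure moved the set after a day. No interferon-stimulated gene was called in this comparison by limma, where 0.00312% of all tested probes were called. An unadjusted limma p under 0.05 was reached by 3 of the 40 (7.5%), beside 3.61% of all tested probes. The smallest adjusted p was 0.847. A total of 37 of the 40 genes had a higher mean in pollen than in mock, against 49.1% of all tested probes, and the median difference was 0.17 on the log2 scale, against -0.00 over all tested probes. The median differences within the 3 same-numbered pairs of arrays were 0.19, 0.14 and 0.18. In all 3 pairs 20 of the 40 genes were higher in pollen, beside 17% of all tested probes. The genes are not independent of each other, and no test was made over the set.

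The 3 genes with an unadjusted p under 0.05 were IRF9, XAF1 and USP18. IRF9, a DNA-binding partner of STAT2, stood at -1.02, -0.99 and -0.80 in mock and at -0.79, -0.64 and -0.41 in pollen. Every pollen array was above every mock array, though the closest pair differed by less than the spread within either group. The difference was 0.32 ± 0.10 (SE, limma, adjusted p = 0.847), with a 95% interval from 0.12 to 0.53. With the arrays weighted by their quality IRF9 was the only gene of the set that was called, at 0.41 ± 0.09 and a limma adjusted p = 0.0416. In that fit replicate 2 of mock at 24 h had a weight of 5.21, against 0.61 and 0.72 for replicates 1 and 3. The weighted mock mean thus rests mostly on that array. The share of all tested probes called with the weights is not given.

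XAF1, an interferon-induced gene that antagonises an inhibitor of apoptosis, stood at -6.31, -6.60 and -6.03 in mock and at -5.80, -5.73 and -5.58 in pollen. The groups did not overlap, and the pollen arrays lay closer together than the mock arrays. The difference was 0.61 ± 0.22 (SE), a 1.53-fold higher level with a limma adjusted p of 1.00. In mock XAF1 was well above background on 2 of 3 arrays. USP18, the protease that removes ISG15 from proteins and dampens interferon signalling, stood at -1.07, -0.92 and -0.89 in mock and at -0.72, -0.76 and -0.46 in pollen, again without overlap.

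Of the other genes with the smallest p, CMPK2, a mitochondrial nucleotide kinase next to RSAD2 in the genome, had the largest difference of the set at 0.64 ± 0.34 (SE). Its values were -6.64, -6.10 and -6.34 in mock and -6.27, -5.98 and -4.90 in pollen. The groups overlapped, and pollen replicate 3 stood apart from the other 5 arrays. In mock CMPK2 was well above background on 2 of 3 arrays. SAMD9L, a growth-restricting antiviral factor, was at -3.20, -2.67 and -2.50 in mock and at -2.68, -2.63 and -2.13 in pollen, and DDX60, a helicase that assists RNA sensing, at -2.84, -2.59 and -2.26 against -2.48, -2.36 and -1.95. Both overlapped between the groups. OASL, a relative of the oligoadenylate synthetases, was at -4.78, -4.94 and -4.56 in mock and at -4.43, -4.59 and -4.23 in pollen, with the lowest pollen array just below the highest mock array.

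The membrane proteins IFITM1 and IFITM3 restrict the entry of enveloped viruses. IFITM3 stood at 4.62, 4.35 and 4.62 in mock and at 4.79, 4.67 and 5.00 in pollen. IFITM1 stood at 2.41, 2.11 and 2.28 in mock and at 2.49, 2.46 and 2.68 in pollen. Neither overlapped between the groups, and the differences were 0.29 ± 0.15 and 0.28 ± 0.17 (SE). IFIH1, which encodes the RNA sensor MDA5, differed by 0.13 ± 0.08, with -0.01, 0.08 and 0.02 in mock and 0.05, 0.20 and 0.22 in pollen, and its groups overlapped.

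A total of 8 of the 40 genes had all 3 pollen arrays above all 3 mock arrays at 24 h, beside 5.33% of all tested probes. They were IRF7, IRF9, USP18, MX1, BST2, IFITM1, IFITM3 and XAF1. In the opposite direction there were 0 of the set, beside 3.47% of all tested probes. By role, the median difference was 0.13 for the 3 sensors, 0.17 for the 3 transcription factors, 0.10 for the 4 genes of the ISG15 system, 0.13 for the 4 IFIT genes, 0.26 for the 4 OAS genes and 0.28 for the 3 IFITM genes, and the other genes are in the plot of the differences. The 3 genes with a lower mean in pollen were ISG20, HERC6 and RSAD2. RSAD2 was not well above background in either group. Of 12 further probes of the set that could be tested, 8 had the sign of the brighter probe of their gene in this comparison. The exceptions were the further probe of HERC6, at 0.57 against -0.15, those of OAS2, at -0.05 and -0.12 against 0.17, and that of OAS3, at -0.28 against 0.02.

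**Figure D2:**
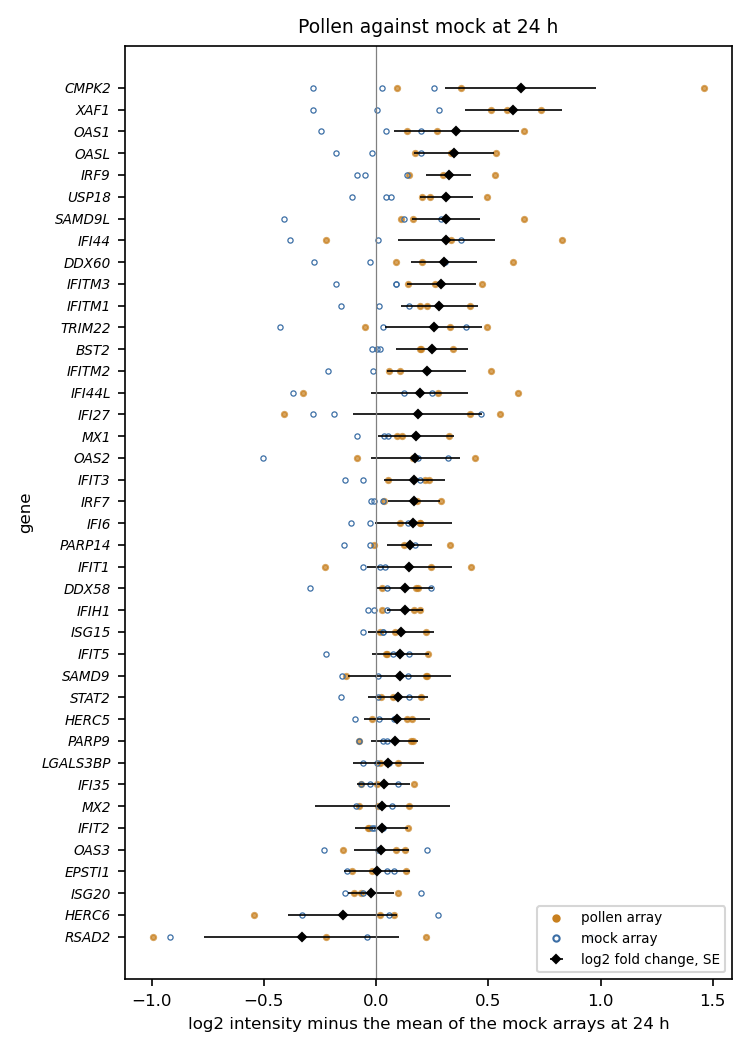
Differences between pollen and mock at 24 h for the 40 genes, ordered by size. Small filled points are the 3 pollen arrays and open points the 3 mock arrays, each as log2 intensity minus the mean of the mock arrays, and the diamonds with bars are the log2 fold change and its SE. The diamonds of 37 genes lie right of 0, and for 8 genes the filled and open points do not overlap.

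The fit took a single spread per gene over all groups, so the SE was the same at every time by construction. It lay between 0.08 and 0.44, with a median of 0.16. The spread within groups did differ. In pollen the SD of CMPK2 was 0.08 at 2h25 min and 0.72 at 24 h, and that of MX2 0.97 at 55 min and 0.11 at 24 h. The 95% interval of the difference at 24 h lay inside a log2 change of 1 in either direction for 37 of the 40 genes.

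At the earlier times about as many genes were higher as lower in pollen. No gene was called by limma at 10 min, 55 min, 2h25 min or 6h50 min, where 0, 0.00312, 0.0343 and 0.0436% of all tested probes were called. The numbers of genes with a higher mean in pollen were 21, 16, 19 and 21 of 40, and the median differences were 0.00, -0.03, -0.02 and 0.00. An unadjusted limma p under 0.05 was reached by 0, 0, 0 and 5 genes, beside 1.83, 5.08, 2.98 and 7.44% of all tested probes.

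The 5 genes at 6h50 min were PARP14, PARP9, IFIT3 and OAS1, with higher means in pollen, and HERC5, with a lower mean. PARP9 and PARP14 encode ADP-ribosyltransferases that act with the STAT factors, and their differences were 0.32 ± 0.10 and 0.31 ± 0.10 (SE), with adjusted p values of 0.286 and 0.284. IFIT3, which binds to other IFIT proteins on viral RNA, differed by 0.35 ± 0.14, and OAS1, an enzyme that makes the activator of RNase L, by 0.61 ± 0.28. HERC5, the ligase that attaches ISG15 to proteins, differed by -0.40 ± 0.15. Over all tested probes 7.44% had an unadjusted p under 0.05 at this time, against 12.5% of the set.

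The difference at 24 h was set against the difference at an earlier time by an interaction term. No gene was called against 6h50 min or against 10 min, as for 0% of all tested probes. An unadjusted limma p under 0.05 was reached by 4 and 1 of the 40 genes (10% and 2.5%), beside 5.16% and 2.96% of all tested probes. Against 6h50 min these were USP18, XAF1, HERC5 and IRF9, and against 10 min IRF9 alone. A larger difference at 24 h than at 6h50 min or 10 min was thus not shown for any gene.

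Time was examined in mock and in pollen separately, with 24 h against 10 min. In mock 23 genes fell and 2 rose, beside 20% and 17.5% of all tested probes. In pollen 22 fell and 3 rose, beside 19.5% and 15.8%. The median log2 change was -0.63 in mock and -0.53 in pollen, where the medians over all tested probes were -0.06 and -0.07. The arrays of mock and pollen are different arrays but lay on the same slide at each of these times, so the comparisons are not independent. A total of 22 genes fell in both, which is 22 of the 23 in mock and 22 of the 22 in pollen. The share of all tested probes that fell in both is not given. IFIT3 fell in mock alone, and IRF7 rose in pollen alone; the difference between the exposures was not called for either.

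**Figure D3:**
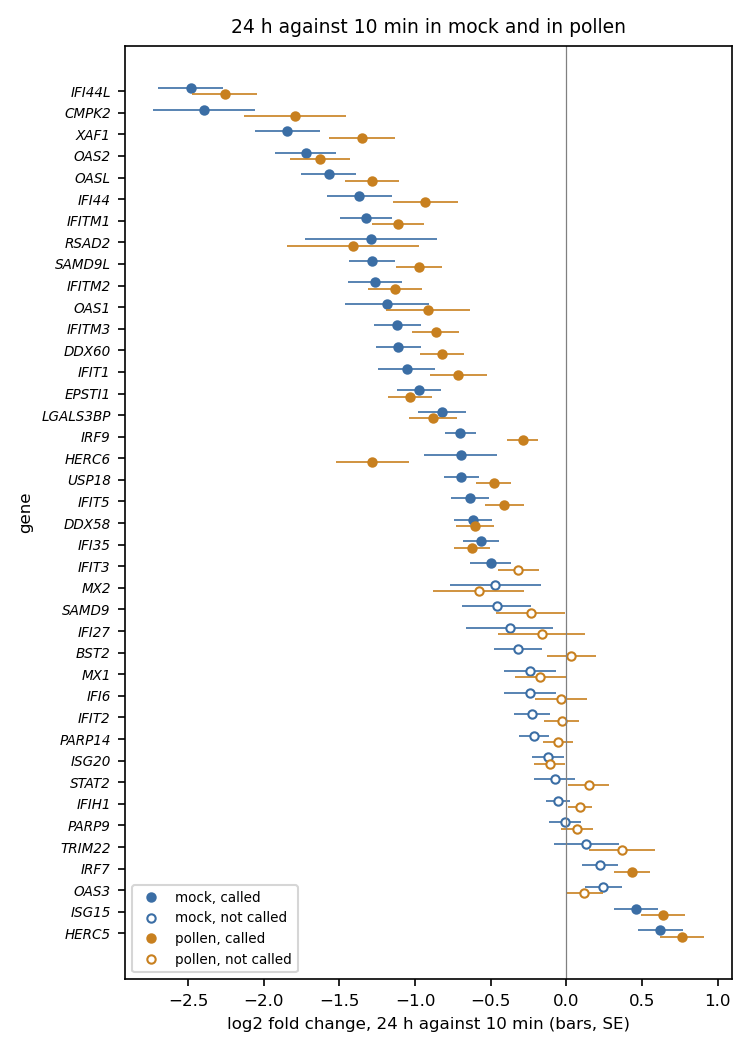
Log2 fold change of the 40 genes between 24 h and 10 min, in mock (blue) and in pollen (orange), ordered by the change in mock. Bars are the SE, filled points were called and open points were not. The points of IFI44L, CMPK2, XAF1 and OAS2 lie furthest to the left, and those of HERC5 and ISG15 lie right of 0 in both exposures.

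IFI44L, an interferon-induced gene used as a sensitive readout of type I interferon, fell most. Its values in mock were -0.40, 0.14 and 0.08 at 10 min and -2.91, -2.42 and -2.29 at 24 h. In pollen they were -0.38, 0.05 and 0.05 at 10 min and -2.87, -2.27 and -1.91 at 24 h. All 6 arrays at 24 h were below all 24 arrays of the earlier times. The log2 change was -2.48 ± 0.22 (SE) in mock, a 5.59-fold lower level, and -2.26 ± 0.22 in pollen, with limma adjusted p values of 3.22e-08 and 1.99e-07.

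CMPK2 was at -3.76, -3.93 and -4.20 in mock at 10 min and at -6.64, -6.10 and -6.34 at 24 h. CMPK2 and XAF1 were each well above background on 2 of the 3 mock arrays at 24 h. In pollen CMPK2 was at -3.74, -3.69 and -4.35 at 10 min and at -6.27, -5.98 and -4.90 at 24 h. Every array at 24 h was again below every earlier one, and the change was -2.40 ± 0.34 in mock and -1.79 ± 0.34 in pollen. XAF1 was at -4.09, -4.73 and -4.58 in mock at 10 min against the values near -6 given above, a change of -1.85 ± 0.22, and it changed by -1.35 ± 0.22 in pollen. IFI44, the neighbour of IFI44L, changed by -1.37 ± 0.22 in mock and by -0.93 ± 0.22 in pollen.

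In the OAS family, whose enzymes answer to double-stranded RNA, OAS1, OAS2 and OASL fell and OAS3 was not called. OASL was at -3.26, -3.24 and -3.07 in mock at 10 min and at -4.78, -4.94 and -4.56 at 24 h, without overlap, a change of -1.57 ± 0.18. OAS2 changed by -1.72 ± 0.20 on its brightest probe. Its probes disagreed, since the 2 further probes, which lie elsewhere in the gene, changed by 0.19 and -0.10 and were not called. OAS1 changed by -1.18 ± 0.28, and OAS3 by 0.24. In mock at 24 h OAS1 and OAS2 were each well above background on 2 of 3 arrays. In pollen the call of OAS1 was lost without replicate 2 of 10 min (limma adjusted p = 0.0901) or of 24 h (0.0526), and OAS3 in mock was called without replicate 2 of 24 h (0.0399).

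All 3 IFITM genes fell in both exposures. IFITM3 was at 5.53, 5.75 and 5.66 in mock at 10 min and at 4.62, 4.35 and 4.62 at 24 h. In pollen it was at 5.78, 5.70 and 5.58 and then at 4.79, 4.67 and 5.00. The changes were -1.12 ± 0.15 and -0.87 ± 0.15, and all arrays at 24 h lay below all earlier arrays. IFITM1 changed by -1.32 ± 0.17 and IFITM2 by -1.27 ± 0.18 in mock. The probes of IFITM2 and IFITM3 match at 34 of 60 bases, and whether each probe also takes up the transcripts of the other gene was not tested.

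Among the sensors, DDX58 and DDX60 fell, by 0.62 and 1.11 on the log2 scale in mock, and IFIH1 changed by -0.06 and was not called. Of the IFIT genes, which bind viral RNA, IFIT1 and IFIT5 fell in both exposures, with changes of -1.06 and -0.64 in mock, and IFIT2 was not called. Of the transcription factors, IRF9 changed by -0.70 in mock and by -0.29 in pollen, while STAT2 was called in neither exposure. SAMD9L changed by -1.28 ± 0.15 in mock and by -0.97 ± 0.15 in pollen, and its relative SAMD9 was not called. RSAD2 was well above background on 2 of 3 arrays at 10 min and on 0 at 24 h, in mock as in pollen. Only an approximate bound can therefore be given, since the mean of 10 min also includes a dim array. By that bound its level at 24 h was lower by 1.38-fold or more in mock and by 1.23-fold or more in pollen. The limma adjusted p values, 0.0228 in mock and 0.0151 in pollen, belong to the measured values with the dim arrays included, and not to these bounds. The call of RSAD2 in mock was lost without mock replicate 1 or 2 of either time, with limma adjusted p values from 0.0608 to 0.164, and that in pollen without pollen replicate 1 or 2 of 10 min or replicate 2 of 24 h, with values from 0.0546 to 0.0846. IRF9 in pollen lost its call without replicate 2 of 10 min (limma adjusted p = 0.142) or without replicate 1 or 2 of 24 h (0.174 and 0.0682), and IFIT1 in pollen without replicate 1 of 24 h (0.0547). IFIT5 in pollen lost its call without replicate 3 of 10 min or replicate 1 or 2 of 24 h (limma adjusted p from 0.0506 to 0.071).

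ISG15 and HERC5 rose, where the other called genes in mock fell. ISG15 encodes a ubiquitin-like protein that is joined to other proteins, and HERC5 the ligase that joins it. ISG15 was at 2.27, 2.55 and 2.46 in mock at 10 min and at 2.91, 2.82 and 2.91 at 24 h, and in pollen at 2.12, 2.58 and 2.36 and then at 2.97, 3.11 and 2.90. HERC5 was at -3.82, -4.35 and -4.18 in mock at 10 min and at -3.59, -3.41 and -3.48 at 24 h, and in pollen at -3.92, -4.28 and -4.31 and then at -3.52, -3.36 and -3.34. For both genes every array at 24 h was above every array at 10 min. The changes of ISG15 were 0.46 ± 0.15 in mock and 0.64 ± 0.15 in pollen, and those of HERC5 were 0.62 ± 0.15 and 0.76 ± 0.15. The call of ISG15 in mock was lost without mock replicate 1 of either time (limma adjusted p = 0.0798 without that of 10 min and 0.0522 without that of 24 h). With the slide as a fixed block the change of ISG15 in mock turned to -0.12, that in pollen was 0.06, and those of HERC5 were 0.62 and 0.76, with none of these 4 called. USP18 and HERC6, the other members of the ISG15 system, fell in both exposures. HERC6 in mock lost its call without replicate 1 or 2 of either time (limma adjusted p from 0.0511 to 0.148).

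Over both exposures 22 genes had all 6 arrays at 24 h below all 6 at 10 min, beside 17.5% of all tested probes, and 3 genes (IRF7, ISG15 and HERC5) had them above, beside 15.3%. Against all 24 arrays of the earlier times, 10 genes lay wholly below, beside 4.67% of all tested probes, and 0 wholly above, beside 4.6%. The 10 were DDX58, OAS2, OASL, CMPK2, SAMD9L, IFITM3, IFI35, IFI44L, XAF1 and EPSTI1.

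**Figure D4:**
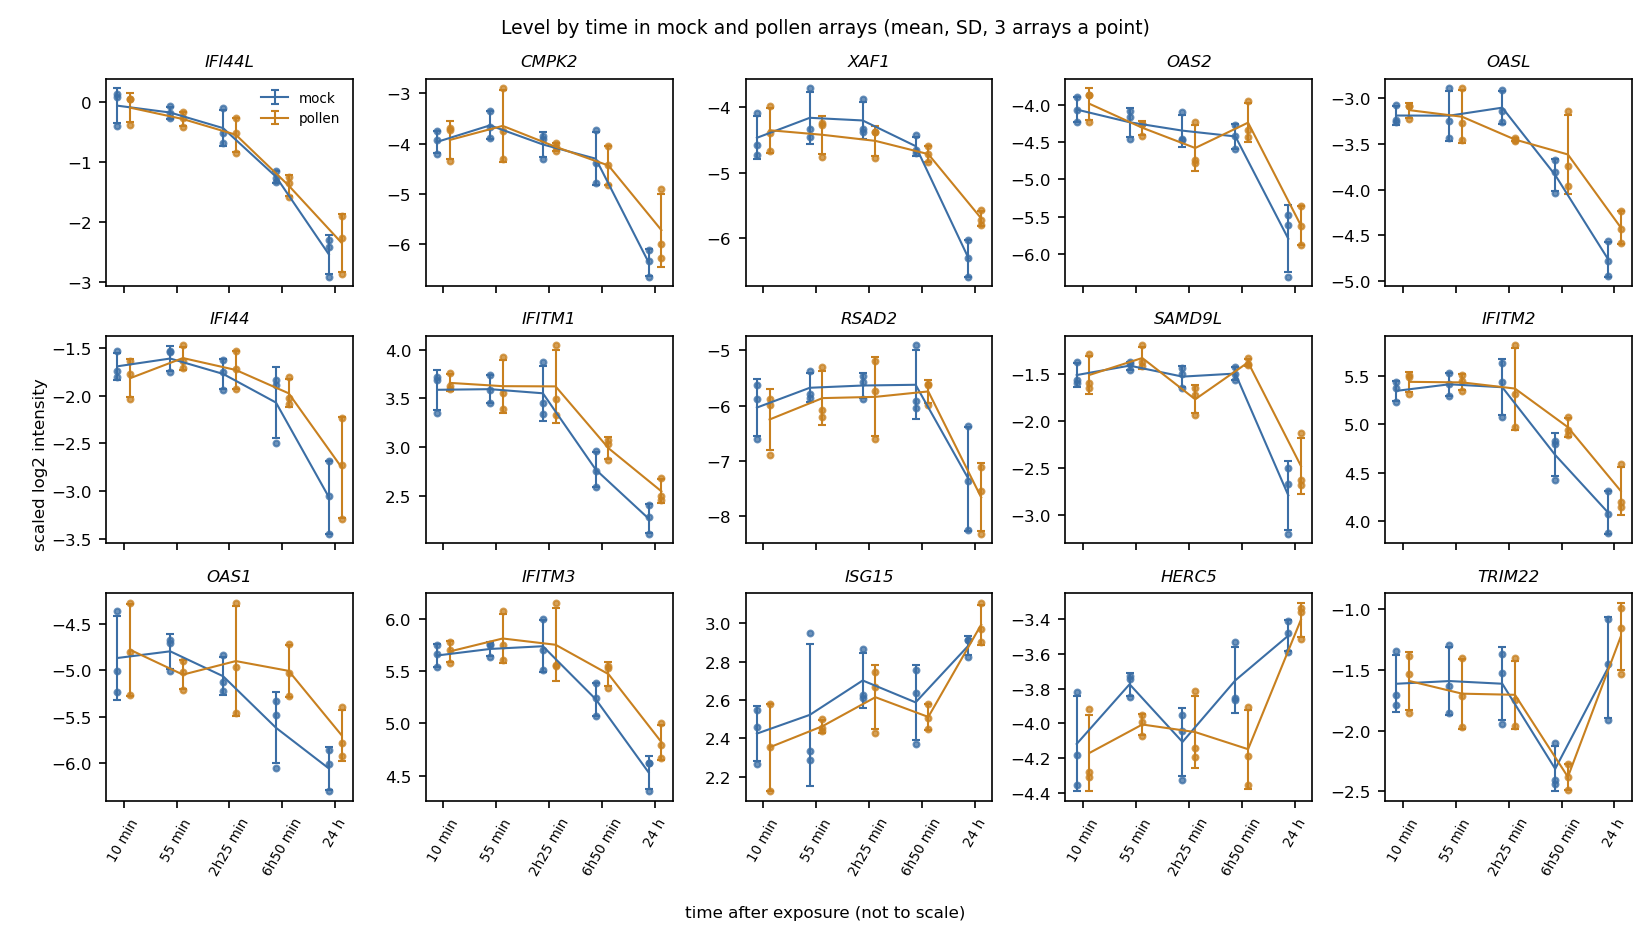
Scaled log2 intensity by time in mock (blue) and pollen (orange) for the 12 genes with the largest called change in mock and for ISG15, HERC5 and TRIM22. Points are arrays, lines join the means of 3 arrays and bars are the SD, and each panel has its own axis. IFI44L and the IFITM genes are already lower at 6h50 min, whereas XAF1, OAS2 and SAMD9L are near their earlier levels until 6h50 min and lower at 24 h.

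The fall was not spread in the same way over the times. At 6h50 min IFI44L had a mean of -1.25 in mock, between -0.06 at 10 min and -2.54 at 24 h, and IFITM1 one of 2.77, between 3.59 and 2.26. SAMD9L stood at -1.51 at 10 min, -1.49 at 6h50 min and -2.79 at 24 h. Against 6h50 min, 22 genes fell and 2 rose in mock, beside 15.9% and 24.7% of all tested probes, and 21 fell and 5 rose in pollen, beside 14.5% and 21.8%. The median change of the set was -0.53 in mock and -0.44 in pollen, where the medians over all tested probes were 0.14 and 0.11. In the deposited log2 values the share of rises among all calls was 42.9% in mock, where it was 60.8% here. Against 6h50 min, 3 genes lost their call in mock when 1 array was left out (HERC6, IFITM1 and IFITM2), with limma adjusted p values from 0.059 to 0.0972. In pollen 9 did (DDX60, IRF9, ISG15, HERC6, IFIH1, IFI44, IFITM1, MX1 and MX2), and IFITM1 lost it without replicate 1, 2 or 3 of 6h50 min and without replicate 1 or 2 of 24 h (limma adjusted p from 0.0545 to 0.133).

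TRIM22, an antiviral ubiquitin ligase, had its lowest level at 6h50 min. Its mean in mock was -1.61 at 10 min, -2.31 at 6h50 min and -1.48 at 24 h, and in pollen -1.59, -2.38 and -1.23. The rise from 6h50 min to 24 h was 0.83 ± 0.22 in mock and 1.16 ± 0.22 in pollen. STAT2, MX1 and ISG20 had the opposite course and fell from 6h50 min to 24 h in both exposures. The call of MX1 in pollen was lost without replicate 1 or 2 of either time (limma adjusted p from 0.0679 to 0.106). STAT2 had means in mock of 2.88 at 10 min, 3.34 at 6h50 min and 2.81 at 24 h. In the set 18 genes were called lower at 24 h than at both 10 min and 6h50 min in both exposures, beside 6.06% of all tested probes. They include RSAD2, which was well above background on 0 arrays at 24 h and passed the filter on dim probes only through earlier times. Against 6h50 min its level was lower by at least 1.84-fold in mock and 1.75-fold in pollen. Of the 18, 8 lost at least 1 of these 4 calls when 1 array was left out (DDX60, IRF9, HERC6, IFIT5, RSAD2, IFITM1, IFITM2 and IFI44), and the other 10 kept them with each array left out.

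The times were not spread evenly over the glass slides. All arrays of 10 min lay on one slide, all of 6h50 min on another, and all of 24 h on a further one with replicate 3 of 2h25 min in both exposures. Pollen and mock of 10 min, 6h50 min and 24 h were thus compared within a slide. Between 24 h and 6h50 min, time and slide cannot be told apart. The 2 arrays of 2h25 min on the slide of 24 h, 1 mock and 1 pollen, give the comparison within a slide. Against its own array of 2h25 min, mock at 24 h was lower for 34 of the 40 genes, with a median of -0.59, and pollen for 29 with a median of -0.37, where the medians over all tested probes were both -0.04. In mock 18 genes were called lower, all of them among the 23 above, beside 7.88% of all tested probes. In pollen 12 were called lower and HERC5 higher, beside 5.19% and 4.11%. The spread was taken from the other groups. In mock all 23 of the genes that fell against 10 min had a lower value in this comparison. With the slide as a fixed block, an alternative added after seeing the data, 4 genes were called in mock between 24 h and 10 min (DDX60, SAMD9L, IFI44 and IFI44L) and 2 in pollen (HERC6 and IFI44L), all lower, beside 3.57% and 1.75% of all tested probes called lower in that fit. The medians of the set were -0.68 and -0.42.

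The median deviation of the set from its own mean was 0.11 and 0.07 on these 2 arrays of 2h25 min, between 0.05 and 0.19 on the other arrays of that time, and between -0.52 and -0.18 on the 6 arrays of 24 h. For ISG15 the log2 difference within the slide was 0.02 in mock and 0.24 in pollen, and neither was called. For HERC5 it was 0.45 in mock, not called.

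**Figure D5:**
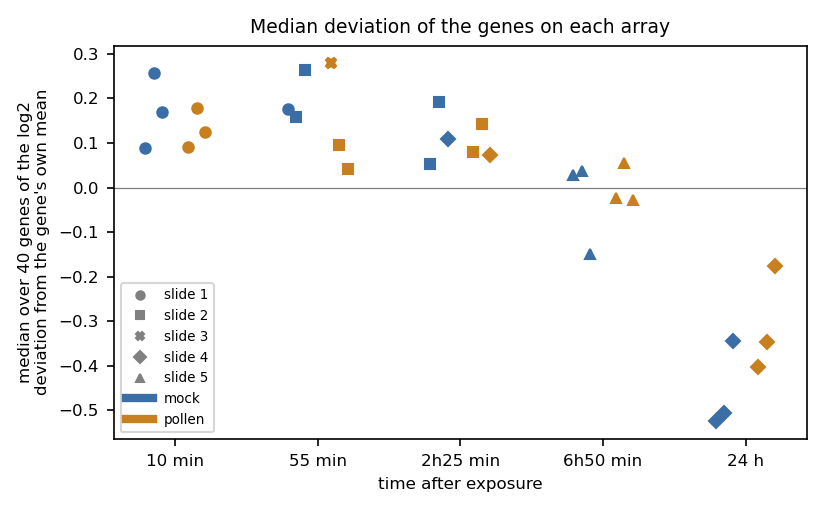
Median over the 40 genes of the log2 deviation from the mean of each gene, for each array by time, in mock (blue) and pollen (orange). The shape of a point gives the slide. The 6 arrays of 24 h lie between -0.52 and -0.18, below the other 24, and the diamonds of the same slide at 2h25 min lie at 0.11 and 0.07.

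The epithelial markers also had a lower summed level at 24 h. The log2 of their summed scaled intensities ranged from 7.90 to 8.33 at 10 min and from 7.06 to 7.46 at 24 h. The sum of the leukocyte markers ranged from -0.67 to -0.15 and from -0.72 to -0.37. The part of either in the change of the interferon-stimulated genes was not tested.

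The genes around the set were examined from lists of the same pathway. Of 10 interferon genes 9 had a probe by name. IFNA2, IFNK, IFNW1, IFNG, IFNL1 and IFNL3 were well above background on 0 of 30 arrays, IFNB1 on 2, IFNE on 21 and IFNL2 on 30. The differences between pollen and mock at 24 h were -0.22 ± 0.31 (SE) for IFNL2 and -0.01 ± 0.25 for IFNE, the 2 that could be tested. The inducible chemokine genes CXCL10 and CXCL11 were above background on 0 arrays.

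No gene of these lists was called by limma between pollen and mock at 24 h. DHX58 and PARP10 were the 2 with an unadjusted limma p under 0.05, which 3.61% of all tested probes reached. Of the 9 receptors and kinases 4 had a higher mean in pollen, and the smallest p were those of JAK2 at -0.16 ± 0.12 and TYK2 at 0.26 ± 0.23. Of 10 further factors and inhibitors 5 were higher, with IRF3 at -0.19 ± 0.17. Of 12 tested genes of nucleic acid sensing 9 were higher. DHX58, a relative of DDX58 without its signalling part, differed by 0.56 ± 0.15 with an unadjusted limma p of 0.00106 and an adjusted p of 0.695, and TRIM25 by 0.18 ± 0.11. Of 35 other interferon-stimulated genes 28 were higher, with a median of 0.08, PARP10 at 0.25 ± 0.11 and NMI at 0.21 ± 0.11. Of 12 genes of antigen presentation 10 were higher, with a median of 0.07, PSMB9 at 0.16 ± 0.13 and HLA-F at -0.06 ± 0.10.

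Between 10 min and 24 h in mock these lists moved in both directions. The other interferon-stimulated genes had 9 rises and 9 falls with a median of -0.19, antigen presentation 3 rises and 1 fall, sensing 3 rises and 5 falls, and the further factors 2 rises and 3 falls. Over all tested probes 17.5% rose and 20% fell. Of the 9 receptors and kinases, IFNAR1 and IFNLR1 rose, by 0.69 and 0.38 on the log2 scale, and IFNAR2 and JAK2 fell, both by 0.55. DHX58 changed by -1.29 ± 0.15. Among the other interferon-stimulated genes ZC3HAV1, which encodes an antiviral zinc finger protein, changed by 1.40 ± 0.16 and RTP4 by -1.74 ± 0.30. The genes named in these lists were picked after their values were seen.

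Of the 12 further probes, 11 had the sign of the brighter probe of their gene in mock at 24 h against 10 min and 6 against 6h50 min, and in pollen 9 and 7. Some of these belong to genes called on their brightest probe. Against 10 min, 5 of 7 such probes in mock and 4 of 7 in pollen were themselves called in the same direction. Against 6h50 min only 2 of 7 in mock and 2 of 8 in pollen were. In mock against 10 min PARP9 was not called on its brightest probe at -0.01 and was called on a further probe at -0.89. A correlation between the genes over the 30 arrays had a median of 0.31 over 780 pairs, and one of 0.12 after the mean of each group was taken out. These values share the arrays, their scaling and the slides, and describe the set without a test.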

How the data were processed

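RNA of 30 cultures was hybridised to one-colour Agilent arrays. Feature Extraction 11.0.1.1 gave the deposited intensity of each spot, background-subtracted and detrended within its array according to the headers, not scaled across arrays, and annotated on hg19. A deposited log2 table by the authors served as an alternative. In it the 6 columns of 24 h matched another array of the same group better than the array of their own label. No measurement column was left without a sample. The array of pollen replicate 1 at 55 min has another design, and 33873 of its 42405 probes are shared with the 58201 of the others, including those of all 40 genes.

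The log2 of each processed intensity minus the 75th percentile of its array over the shared probes was fitted with limma 3.58.1 in R 4.3.3 as 10 group means (20 residual degrees of freedom), with no covariate. A probe was tested if it was well above background in every array of some group, which kept 32100. The calling threshold follows the methods of the study. The pipeline was tested on simulated data for pollen against mock at 24 h over 23889 probes, where 73% of changes of 1 and 88% of changes of 2 on the log2 scale were called. There were 7 false calls. The simulated spread was independent between arrays, without slides or pairs, and no change smaller than 1 was simulated. The differences of the set at 24 h were smaller, so these shares do not apply to them.

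Named genes were those with an unadjusted limma p among the 10 smallest for pollen against mock at 24 h, the 12 largest called changes in mock at 24 h against 10 min, any gene called between pollen and mock, and the 2 smallest p of each further list. The other genes named were chosen after their values were seen. The genes, lists and tests were chosen with earlier results of these data known. Alternatives were other scalings, filters, array weights, blocks and each array left out. Same-numbered mock and pollen arrays deviated together at 10 min, 2h25 min and 24 h (lowest correlation 0.22). The correlations were weak at 6h50 min (0.05, 0.12 and 0.05) and mixed at 55 min (0.19, -0.12 and 0.35). Values of some genes of the further lists are not reported here.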

Additional observations from a re-analysis of the deposited data

How the results depend on the processing

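Pollen against mock gave 0 calls in the set at 10 min, 55 min, 2h25 min and 6h50 min under every alternative run, and 0 at 24 h under all but the array weights, which gave 1 (IRF9). Each array left out gave 0 at every time. Over all tested probes the calls at 6h50 min did depend on the processing. They were 12 higher and 2 lower in the main fit, and 271 higher and 33 lower with normexp background correction and quantile normalization. The study reported its largest response at this time. With the replicate number as a block the counts were also 0, and 0 for both interaction terms, and the block changed the call of no named gene. At 55 min the median of the set was -0.45 with the 75th percentile of each array's own probes, where the array of the other design shifts the median of all probes by -0.36, so its size there follows the scaling. For 24 h against 10 min, the slide as a fixed block was chosen after seeing the data. It left 4 calls in mock (DDX60, SAMD9L, IFI44 and IFI44L) and 2 in pollen (HERC6 and IFI44L), with medians of -0.68 and -0.42. All were lower, beside 3.57% and 1.75% of all tested probes called lower. That fit links both slides only through 55 min and 2h25 min. In it ISG15 in mock turned to -0.12. In pollen the deposited values gave 16 calls against 10 min and 16 against 6h50 min. Against 6h50 min the own percentile gave 14 and the slide as a random block 11. The array of 2h25 min on the same slide gave 13. Calls over all tested probes fell as well. Against 10 min the deposited values gave 3248 higher and 2898 lower, where the main fit gave 5082 and 6260. Against 6h50 min the deposited values gave 2566 and 2821, and the own percentile 2982 and 2326. The main fit gave 6982 and 4640 there. The count over all tested probes with the slide as a random block is not given. Each array left out gave 22 to 26 calls in mock and 21 to 25 in pollen against 10 min, and 22 to 25 and 20 to 25 against 6h50 min. RSAD2 in mock lost its call without mock replicate 1 or 2 of either time and under quantile normalization. The slides limit the comparisons of times, and the number of arrays those of pollen.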
